A study of Mus musculus with 8 samples.

Results

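The ribosome biogenesis factors described here are 37 genes, chosen by gene name from a list of nucleolar proteins that make and process ribosomal RNA (rRNA) and assemble the ribosomal subunits, together with Ppan and the transcription factor gene Myc. The rule used gene names only, but the list was drawn up with earlier results of these data known. All 37 were found once in the table of 45706 genes, and all 37 were among the 14629 genes with enough counts to be tested, of which they were 0.253%. They were compared in whole liver between 4 WT mice and 4 SA/SA mice. All 8 were females on the C57BL/6J strain, 4 months old and fasted overnight, with 1 RNA sequencing library per mouse. SA/SA mice carry, in every tissue, a CRISPR/Cas9 knock-in (S155A) that replaces a serine that can be phosphorylated, in the lipid droplet protein PLIN5, with alanine, which cannot, and the study asked how its loss changes liver gene expression. The labels give hepatocytes as the cell type of a liver sample, and all 8 hepatocyte markers examined, among them Alb and Apob, were detected in every mouse.

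Ribosomes are made in the nucleolus. RNA polymerase I transcribes a long rRNA precursor, small nucleolar ribonucleoproteins (snoRNPs) of the box C/D and box H/ACA classes guide its chemical modification, and a succession of assembly factors folds and cuts it into the small (40S) and large (60S) subunits. Many of these genes are targets of MYC, and their transcription commonly follows nutrient supply and growth, so that liver cells lower it in fasting and raise it when they grow.

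The animal numbers in the labels fall into a low series, under 200, and a high series, over 800, with 2 mice of each genotype in each. Replicates 1 and 4 of both genotypes are the low series and replicates 2 and 3 are the high series. The labels do not say what the series stand for. Total counts ran from 39709785 to 54540864 per mouse, and the members had between 135 and 9342 counts in a mouse. Levels are in CPM, counts divided by TMM-normalized library size. Plin5 itself averaged 206 ± 32.3 CPM in WT against 328 ± 118 CPM in SA/SA (SD, n = 4), and since an edited transcript is counted like an unedited one, this does not check the genotype. The p-values measure the spread among these mice.

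Promoter sequences from RefSeq on build GRCm38.p6 were matched for 31 of the 37 members and run from 250 bases before to 50 bases after the annotated start. They are shown for Ppan, the member with the highest fold change between genotypes, and for Mybbp1a, Nop2 and Tsr1, which hold the E-box. Capitals mark the E-box CACGTG, the site bound by MYC and related factors, and the ETS-type motif CCGGAAG, read on both strands. The window of Ppan is chr9:20887925-20888224, that of Mybbp1a is chr11:72441077-72441376, that of Nop2 is chr6:125131633-125131932 and that of Tsr1 is chr11:74897830-74898129, each on the forward strand.
Ppan: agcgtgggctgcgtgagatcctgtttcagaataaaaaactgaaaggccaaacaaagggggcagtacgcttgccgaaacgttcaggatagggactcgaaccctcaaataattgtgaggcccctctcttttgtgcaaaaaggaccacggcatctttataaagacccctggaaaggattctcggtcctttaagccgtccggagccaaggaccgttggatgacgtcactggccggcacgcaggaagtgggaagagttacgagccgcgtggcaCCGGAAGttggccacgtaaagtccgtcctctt
Mybbp1a: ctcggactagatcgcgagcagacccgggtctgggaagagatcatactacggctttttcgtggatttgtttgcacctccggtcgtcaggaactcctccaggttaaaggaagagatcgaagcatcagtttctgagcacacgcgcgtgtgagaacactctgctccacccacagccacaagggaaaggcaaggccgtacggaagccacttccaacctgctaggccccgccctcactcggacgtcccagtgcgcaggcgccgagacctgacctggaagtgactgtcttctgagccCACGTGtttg
Nop2: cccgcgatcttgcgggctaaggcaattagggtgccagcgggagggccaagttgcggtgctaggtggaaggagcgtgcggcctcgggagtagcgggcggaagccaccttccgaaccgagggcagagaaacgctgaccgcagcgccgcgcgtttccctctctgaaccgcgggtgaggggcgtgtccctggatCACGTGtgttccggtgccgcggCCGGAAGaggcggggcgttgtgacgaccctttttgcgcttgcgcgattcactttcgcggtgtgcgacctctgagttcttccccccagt
Tsr1: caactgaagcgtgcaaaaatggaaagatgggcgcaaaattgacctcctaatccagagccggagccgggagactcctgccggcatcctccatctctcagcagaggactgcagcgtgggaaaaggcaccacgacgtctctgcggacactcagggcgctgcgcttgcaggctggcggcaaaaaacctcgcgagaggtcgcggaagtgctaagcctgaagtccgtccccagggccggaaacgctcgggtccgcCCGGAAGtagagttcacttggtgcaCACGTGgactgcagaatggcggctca

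The E-box began at position 41 in Mybbp1a, -60 in Nop2 and 25 in Tsr1, counted from 1 at the start site. Ppan held no CACGTG in this window. The ETS-type motif began at position 19 in Ppan, -38 in Nop2 and -1 in Tsr1. Across members, CACGTG was in the promoter of 7 of 31 (22.6%; Mybbp1a, Nop2, Pes1, Tsr1, Utp18, Utp20 and Wdr43), and in 11.5% of the 10450 tested genes with a promoter. CCGGAAG was in 32.3% of members and 18.9% of tested genes, the GC box GGGCGG in 77.4% and 66.0%, CCAAT in 32.3% and 42.5%, and TATAAA in 9.68% and 9.31%. All motifs were searched on both strands, none contains another, and a match is a description of the sequence only. The 7 members with an E-box had a median log2 fold change between genotypes of 0.12, and the 24 without it 0.17.

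In SA/SA liver most of these factors were slightly higher in mean than in WT liver, and none passed the test. The log2 fold change was above 0 for 35 of 37 members (32 with scaling by library size alone), with a median of 0.17, where the median of all genes tested was -0.0050 and 48.8% were above 0. The values ran from -0.070 for Ddx21 to 0.56 for Ppan. At an adjusted p under 0.05, 0 of 37 members were called by edgeR's quasi-likelihood test, in which 0% of all genes were called, and the members' adjusted p was at least 0.993. At an unadjusted p under 0.05 there were 0 of 37 members, beside 3.40% of all genes. DESeq2 also called 0 members, beside 0.0411% of all genes. At an unadjusted p under 0.1 there were 5 members (13.5%, beside 8.13% of all genes), Ebna1bp2, Rrp9, Mybbp1a, Nolc1 and Ppan. All 5 were higher in SA/SA mice, as 3.51% of all genes were at that threshold. No member had genotypes that did not overlap (0 of 37, beside 2.30% of all genes). The median depended most on SA/SA replicate 4, without which it was 0.066, with 28 of 37 members higher. It was 0.12 without SA/SA replicate 1 (30 higher) and also 0.12 without WT replicate 3 (32 higher).

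**Figure D1:**
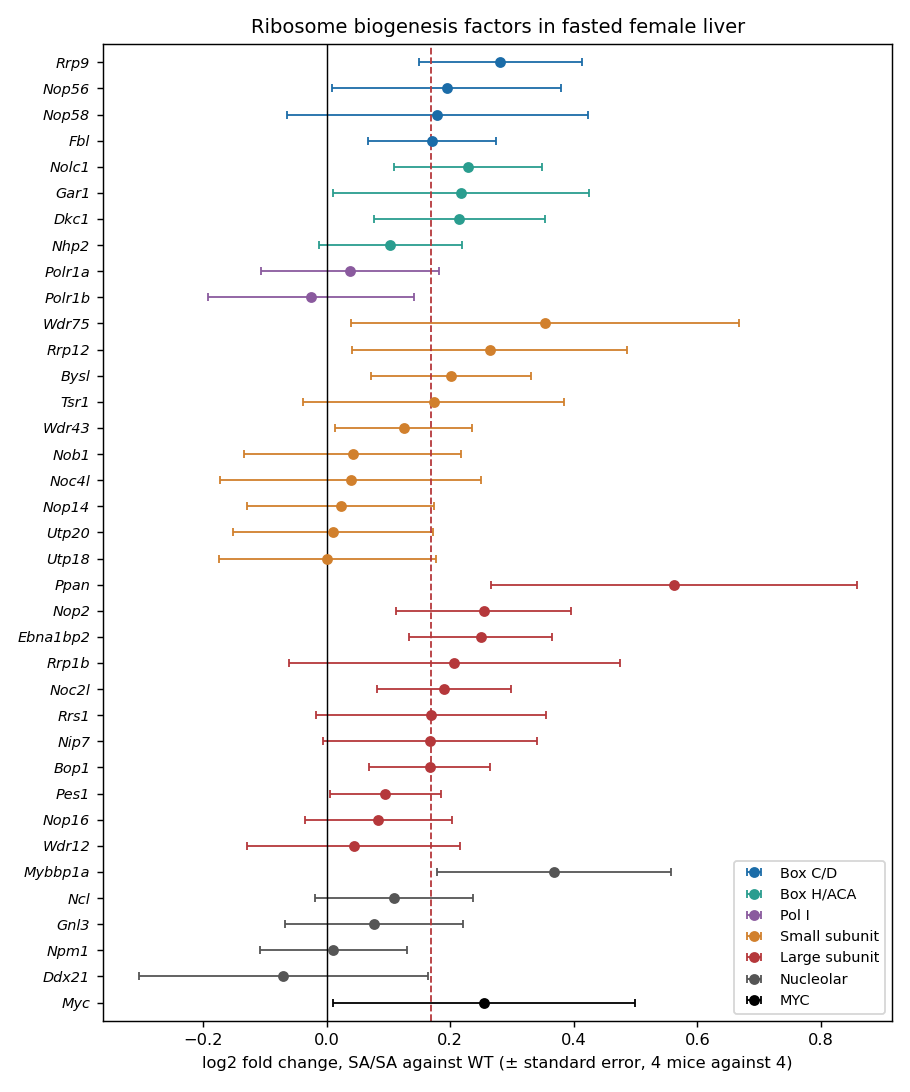
Log2 fold change of each member, SA/SA against WT (horizontal axis), with bars of 1 standard error (4 mice against 4), grouped and coloured by role; the dashed line is the members' median. Ppan has the highest value, 0.56, and Ddx21 and Polr1b lie below 0, where Utp18, Utp20 and Npm1 join them with scaling by library size alone.

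Among mice, the members did not follow the genotype as a whole but were high in a pair of SA/SA mice. Each member's log2 CPM was set against its own mean over the 8 mice. The median of these deviations was 0.25 in SA/SA replicate 1 and 0.21 in SA/SA replicate 4, the low-series SA/SA mice, with 35 and 34 of 37 members above their own mean. It was -0.13 in SA/SA replicate 2 and -0.072 in SA/SA replicate 3, the high-series SA/SA mice. In WT mice it was 0.054, -0.022, -0.19 and -0.087 for replicates 1 to 4, with 5 of 37 members above their mean in replicate 3. SA/SA replicate 1 was the highest of the 8 mice for 15 members and SA/SA replicate 4 for 12 members. WT replicate 3 was the lowest for 12 members and SA/SA replicate 2 for 11 members. Summed over the 37 genes, the level was 1143 and 1154 CPM in SA/SA replicates 1 and 4, and between 862 and 981 CPM in the 6 other mice. In bulk liver, fewer cells of a type and less RNA per cell cannot be told apart.

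**Figure D2:**
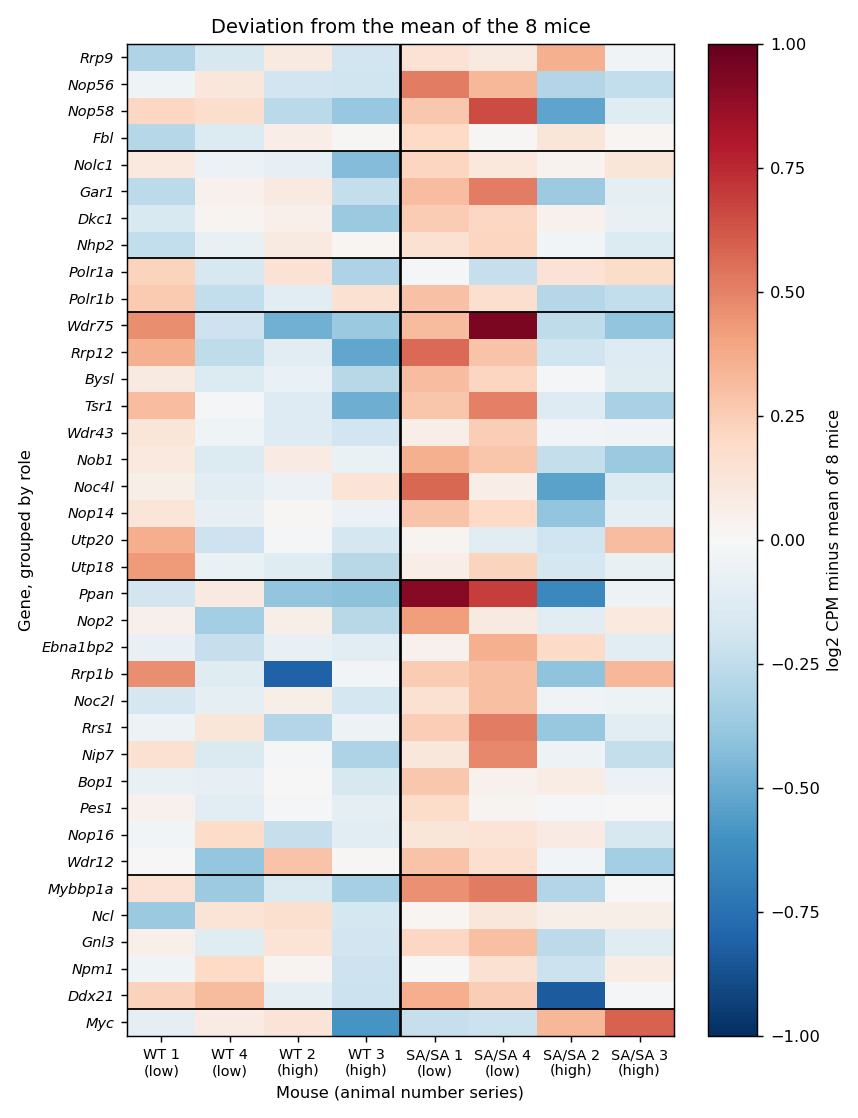
Colour gives each member's log2 CPM minus its mean over the 8 mice (scale from -1 to 1), with mice in columns, genes in rows grouped by role, and the animal number series under each mouse. The columns of SA/SA 1 and SA/SA 4 are mostly red, and Myc in the lowest row has the opposite order within SA/SA.

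The genotype difference therefore was taken within each series, an alternative chosen after seeing the data. In the low series, 33 of 37 members were higher in SA/SA mice, with a median difference in mean log2 CPM of 0.29, and the median over all genes was -0.0041. In the high series the members' median was 0.065, with 25 of 37 higher, and the median over all genes was -0.0092. Both low-series SA/SA mice were above both low-series WT mice for 21 of 37 members (56.8%), beside 16.6% of all genes. The reverse order held for 1 member, Myc (2.70%, beside 16.3%). In the high series, both SA/SA mice were above both WT mice for 4 members, Nolc1, Wdr43, Pes1 and Myc (10.8%, beside 22.7%), and below them for 7 members (18.9%, beside 23.8%). SA/SA replicates 1 and 4 were the 2 highest of all 8 mice for 13 members (35.1%, beside 4.68%).

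The test of whether the genotype difference itself differed between series called 0 of 37 members at an adjusted p under 0.05 in edgeR, with a smallest adjusted p of 0.349 for Nob1, and 0% of all genes. DESeq2 called 0 members in it, beside 2.07% of all genes, and edgeR without a filter on low counts 0 members, beside 3.41%. At an unadjusted p under 0.05 there were 6 of 37 members (16.2%, beside 11.1% of all genes): Nop56, Nhp2, Noc4l, Nob1, Ppan and Wdr12. The count was 13 with scaling by library size alone, 1 without SA/SA replicate 1, 2 without WT replicate 2 and 3 without SA/SA replicate 2. The share of all genes is not given for these settings, so these counts have no background to be read against. In all 6 the difference was smaller or lower in the high series, the direction of 5.07% of all genes. The fitted interaction of Ppan was -0.76 (standard error, SE, 0.29; adjusted p = 0.388) and that of Wdr12 was -0.73 (SE 0.27, adjusted p = 0.370).

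**Figure D3:**
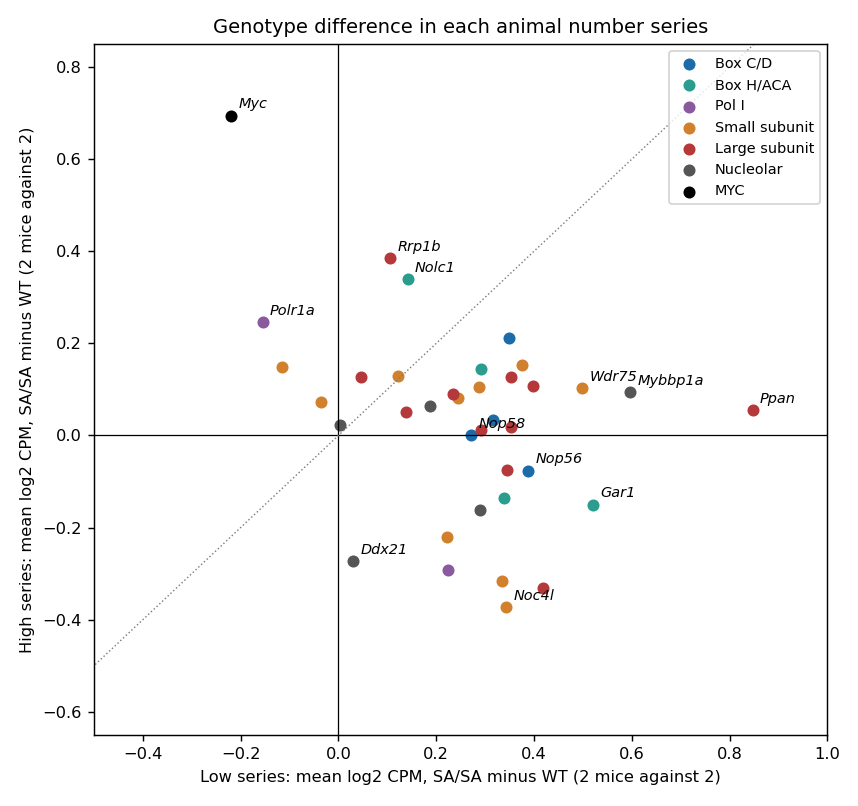
Each point is 1 member, with its difference in mean log2 CPM, SA/SA minus WT, in the low series (horizontal) and in the high series (vertical), 2 mice against 2 in each; the dotted line marks equal differences. 28 of 37 points lie below the dotted line, Ppan is farthest to the right at 0.85, and Myc lies at the upper left.

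The series themselves were also compared, with genotype held in the fit. Of 37 members, 32 were lower in the high series, with a median log2 difference of -0.22 (-0.0045 over all genes). At an unadjusted p under 0.05 there were 10 members (27.0%, beside 12.8% of all genes), all lower in the high series, a direction that 6.19% of all genes took at that threshold. The count was 15 with scaling by library size alone, 16 without the 50 most abundant genes in the scaling and 15 without WT replicate 4. It was 8 without SA/SA replicate 1, 8 without SA/SA replicate 2, 8 without SA/SA replicate 4 and 9 with limma-voom. For these settings too the share of all genes is not given. The 10 were Nop56, Nop58, Wdr75, Utp18, Rrp12, Tsr1, Ppan, Rrs1, Ddx21 and Mybbp1a. No member passed at an adjusted p under 0.05 in edgeR (0 of 37, beside 0% of all genes), where the smallest adjusted p was 0.155, for Nop58 with a log2 difference of -0.65 (SE 0.14). DESeq2 called 5 members lower in the high series, Nop56, Nop58, Wdr75, Tsr1 and Ppan (13.5%, beside 3.53% of all genes), so this result depended on the tool. edgeR without a filter on low counts also called 5 members (13.5%, beside 2.29%): Nop58, Wdr75, Tsr1, Ppan and Ddx21.

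Box C/D snoRNP proteins carry out the methylation of rRNA and include the U3 particle that opens small subunit processing. All 4 members were higher in mean in SA/SA mice, by a median log2 fold change of 0.19, and none passed the test. Rrp9, the protein of the U3 particle, was at 9.68, 12.7, 10.5 and 10.7 CPM in WT replicates 1 to 4 and at 13.2, 15.3, 11.7 and 12.7 CPM in SA/SA replicates 1 to 4. WT replicate 2 lay among the SA/SA mice and the 3 other WT mice lay below all of them, a log2 fold change of 0.28 (SE 0.13; two-sided exact permutation test, p = 0.0857). Fbl, fibrillarin, the methyltransferase of the particle, was at 30.3, 38.5, 37.2 and 33.5 CPM in WT and 42.3, 40.1, 37.4 and 37.1 CPM in SA/SA mice. The genotypes of Fbl overlapped between 37.1 and 38.5 CPM, with a log2 fold change of 0.17 (SE 0.10; exact permutation p = 0.143).

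Nop56 and Nop58 form the core of the same particle and were lower in the high-series SA/SA mice than in the low-series ones. Nop56 was at 36.6 and 32.3 CPM in SA/SA replicates 1 and 4 and at 20.9 and 21.5 CPM in SA/SA replicates 2 and 3, with WT mice between 22.3 and 27.7 CPM. The low-series SA/SA mice were thus above every WT mouse and the high-series SA/SA mice below every WT mouse. Nop58 was at 17.5 and 17.1 CPM in the low-series and 12.6 and 11.6 CPM in the high-series WT mice, and at 18.3 and 23.8 CPM in the low-series and 10.5 and 13.9 CPM in the high-series SA/SA mice, so that it divided by series in both genotypes.

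Box H/ACA snoRNP proteins convert uridine to pseudouridine in rRNA. Their 4 members were also higher in mean in SA/SA mice, with a median log2 fold change of 0.22, which was 0.12 without SA/SA replicate 4. Nolc1, the snoRNP chaperone Nopp140, was at 31.5, 27.8, 21.8 and 28.3 CPM in WT and at 34.2, 30.2, 32.1 and 31.7 CPM in SA/SA mice. Its genotypes overlapped only through WT replicate 1, which lay above SA/SA replicate 2, and the SA/SA mice were the higher pair in both series, by 0.14 and 0.34 in mean log2 CPM. The log2 fold change of Nolc1 was 0.23 (SE 0.12; two-sided exact permutation test, p = 0.0571). Nhp2, an RNA-binding core protein, had the lowest value of the role, 0.10 (SE 0.12; exact permutation p = 0.400). It was at 21.6, 27.2, 26.0 and 24.4 CPM in WT and 28.4, 25.1, 23.3 and 29.6 CPM in SA/SA mice, higher in SA/SA in the low series and lower in the high series. Dkc1, the pseudouridine synthase, and Gar1, a core protein, had log2 fold changes of 0.21 and 0.22.

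The catalytic subunits of RNA polymerase I had fold changes near 0. Polr1a, the largest subunit, was at 33.6, 31.8, 23.2 and 25.8 CPM in WT and 28.5, 31.8, 32.7 and 24.5 CPM in SA/SA mice. Polr1b, which shares the active centre with it, was at 24.5, 19.0, 22.7 and 17.2 CPM in WT and 25.0, 16.7, 17.1 and 23.0 CPM in SA/SA mice. Mice of both genotypes were mixed throughout for both genes. Their log2 fold changes were 0.038 (SE 0.14) for Polr1a and -0.025 (SE 0.17) for Polr1b, and each was smaller than its SE.

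Small subunit factors build the processome on the nascent transcript and carry the pre-40S particle to export. Their 10 members had fold changes above 0 (8 with scaling by library size alone, where Utp18 and Utp20 were below 0) and a median of 0.084, from 0.0013 for Utp18 to 0.35 for Wdr75. With 1 mouse left out, the median ran from 0.028 (without SA/SA replicate 4, 7 of 10 higher) to 0.18 (without WT replicate 1), and 6 of 10 were higher without SA/SA replicate 1. Wdr75, one of the proteins that join the nascent transcript first, was at 12.5, 6.46, 6.97 and 7.82 CPM in WT and 11.3, 7.57, 6.86 and 17.4 CPM in SA/SA mice. The 3 highest mice were SA/SA replicate 4, WT replicate 1 and SA/SA replicate 1, all of the low series. Wdr75 differed by only 0.022 on the log2 scale without SA/SA replicate 4. Utp18, a scaffold protein of the processome, was at 10.8, 7.37, 6.61 and 7.66 CPM in WT and 8.38, 7.07, 7.63 and 9.35 CPM in SA/SA mice. Its highest mouse was WT replicate 1, and the genotypes were mixed.

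The other small subunit members lay between these values. Rrp12, an export factor, Bysl, a pre-40S binding protein, and Tsr1, a late pre-40S factor, had log2 fold changes of 0.26, 0.20 and 0.17. Noc4l and Nop14, which bind each other in the processome, had 0.039 and 0.023, and Nob1, the endonuclease that makes the end of the small subunit rRNA, had 0.042. These 3 genes were higher in both low-series SA/SA mice than in the low-series WT mice and lower in both high-series SA/SA mice than in the high-series WT mice. Noc4l went from 14.4 CPM in SA/SA replicate 1 to 6.66 CPM in SA/SA replicate 2, the highest and the lowest of the 8 mice, and its WT mice lay between 8.98 and 10.6 CPM. Wdr43 and Utp20, processome proteins, had 0.12 and 0.011.

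Large subunit factors process the precursor of the large subunit rRNA and assemble the pre-60S particle. All 11 members were higher in mean in SA/SA mice, with a median log2 fold change of 0.17. Ppan, the homolog of the yeast factor Ssf1, which acts in pre-60S assembly, lies on chromosome 9 and had the highest fold change of the 37. Its level was 19.3, 16.6, 16.4 and 23.3 CPM in WT replicates 1 to 4 and 41.2, 13.9, 21.1 and 35.2 CPM in SA/SA replicates 1 to 4. SA/SA replicates 1 and 4 were above every WT mouse, SA/SA replicate 3 lay within the WT range, and SA/SA replicate 2 was the lowest of all 8. The log2 fold change of 0.56 (SE 0.30; two-sided exact permutation test, p = 0.314) fell to 0.31 without SA/SA replicate 1 and was 0.79 without SA/SA replicate 2. None of the 31-base words of the annotated principal transcript of Ppan occurred in the annotated transcripts of another gene.

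Pes1, Bop1 and Wdr12 form 1 complex of the pre-60S particle. Wdr12 had the lowest fold change of the role, 0.044 (SE 0.17), with 15.9, 19.4, 16.0 and 12.2 CPM in WT and 19.4, 15.6, 12.6 and 17.9 CPM in SA/SA mice. Its order turned between series, with 0.42 for the low series and -0.33 for the high. Bop1 and Pes1 varied less, at 27.9 ± 1.21 against 31.4 ± 3.04 CPM and 34.0 ± 1.75 against 36.3 ± 2.36 CPM (WT against SA/SA, SD, n = 4), with log2 fold changes of 0.17 and 0.095.

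Ebna1bp2, a nucleolar pre-60S factor, had the smallest unadjusted p of the members and went from 22.8 ± 1.17 CPM in WT to 27.1 ± 3.78 CPM in SA/SA (SD, n = 4). The log2 fold change, 0.25 (SE 0.12), had an adjusted p of 0.993 in edgeR, and SA/SA replicate 3, at 22.8 CPM, was below 3 of the 4 WT mice. Nop2, an rRNA cytosine methyltransferase, had a log2 fold change of 0.25. The values were 0.21 for Rrp1b, 0.19 for Noc2l, 0.17 for Rrs1, which brings the 5S particle to the pre-60S subunit, 0.17 for Nip7 and 0.084 for Nop16.

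**Figure D4:**
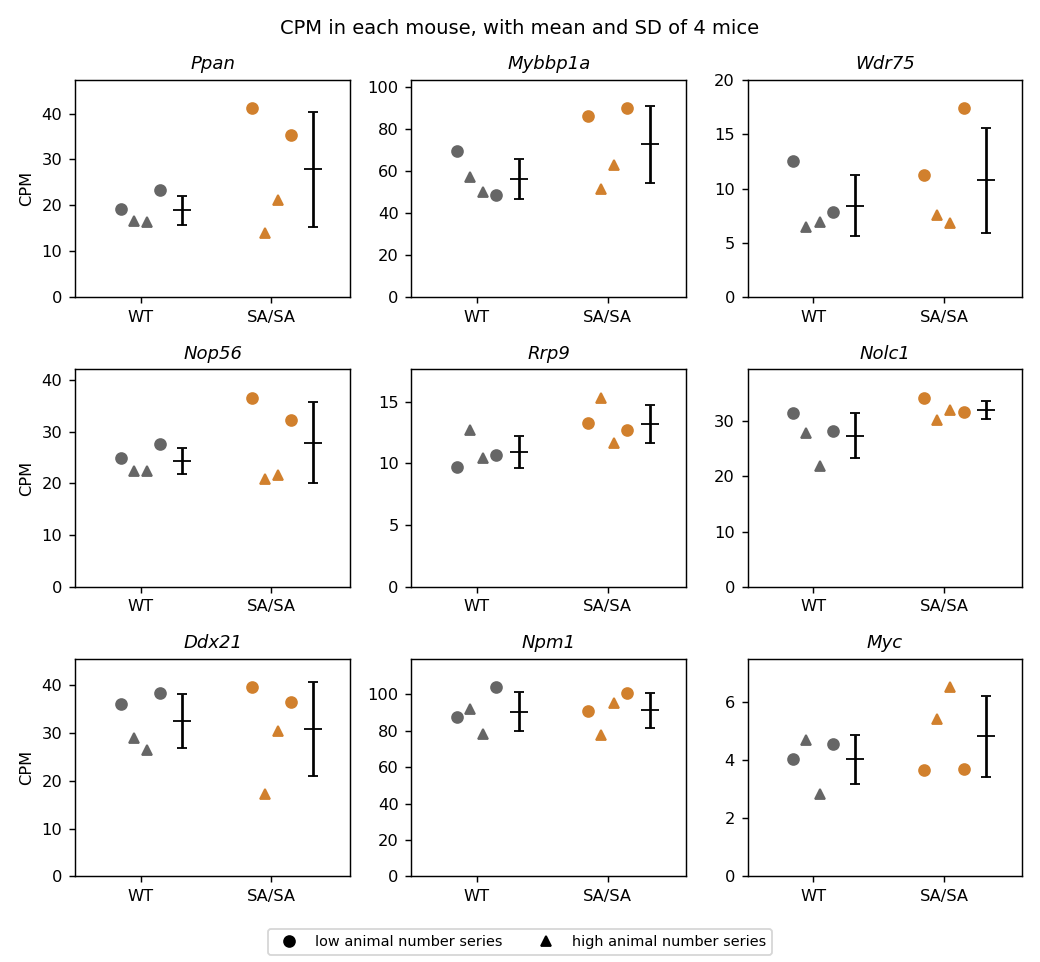
CPM in every mouse for 9 members, each point 1 mouse, with bars for the mean and SD of 4 mice; circles are the low and triangles the high animal number series. For Ppan, Nop56 and Mybbp1a the 2 SA/SA circles lie above all other mice, and for Myc they lie below both SA/SA triangles.

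Multifunctional nucleolar proteins take part in rRNA transcription, in processing and in the response of the nucleolus to stress. Of their 5 members, 4 were higher in mean in SA/SA mice (3 with scaling by library size alone), with a median log2 fold change of 0.077. Without SA/SA replicate 4 the direction turned, with 2 of 5 higher and a median of -0.016, and without SA/SA replicate 2 the median was 0.14. Mybbp1a, a nucleolar protein that binds transcription factors and takes part in rRNA processing, was at 69.4, 56.9, 49.9 and 48.8 CPM in WT and 86.2, 51.4, 63.1 and 89.9 CPM in SA/SA mice. SA/SA replicates 1 and 4 were the 2 highest mice and the rest were mixed, with a log2 fold change of 0.37 (SE 0.19; two-sided exact permutation test, p = 0.200). Ddx21, an RNA helicase of rRNA transcription and processing, had the lowest fold change of the 37, -0.070 (SE 0.23). It was at 35.9, 28.9, 26.4 and 38.3 CPM in WT and 39.5, 17.2, 30.4 and 36.3 CPM in SA/SA mice. SA/SA replicate 2 was the lowest of the 8 and SA/SA replicate 1 the highest, and without SA/SA replicate 2 the value was 0.14.

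Npm1 and Ncl, nucleophosmin and nucleolin, are the major nucleolar chaperone and RNA-binding proteins. Npm1 was at 90.4 ± 10.7 CPM in WT and 91.1 ± 9.72 CPM in SA/SA mice, and Ncl at 161 ± 27.98 CPM and 174 ± 4.75 CPM (SD, n = 4). Gnl3, nucleostemin, had a log2 fold change of 0.077. Per kilobase of the annotated principal transcript, Npm1 was at 55.6 ± 5.79 CPM per kb (SD over 8 mice), Fbl at 30.95 ± 3.12, Nhp2 at 24.7 ± 2.57 and Ncl at 20.4 ± 2.41. These levels rest on the transcript chosen, which has 8202 bases for Ncl and 1633 for Npm1, and 45.5% of the 31-base words of Npm1 occur in other genes, so no order is drawn between Npm1 and Ncl. The ranges of Fbl, 25.3 to 35.3, and Nhp2, 20.7 to 28.4, overlapped over the 8 mice.

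Myc, the transcription factor that drives many of these genes, did not share their order. It was at 4.05, 4.70, 2.84 and 4.56 CPM in WT and 3.67, 5.42, 6.52 and 3.70 CPM in SA/SA mice. Myc was lower in both low-series SA/SA mice than in the low-series WT mice, and higher in both high-series SA/SA mice than in every WT mouse. The log2 fold change was 0.25 (SE 0.24; two-sided exact permutation test, p = 0.371), and 0.078 without SA/SA replicate 3. In the test between series the interaction of Myc was 0.88 (SE 0.40, adjusted p = 0.466 from edgeR), opposite in sign to that of 28 other members.

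Its highest mouse, SA/SA replicate 3, also had the highest summed markers of B cells and plasma cells and of T and NK cells. The 8 B cell and plasma cell markers summed to 2074 CPM in it, and to between 18.6 and 46.4 CPM in WT mice and 26.9 and 37.1 CPM in SA/SA replicates 1, 2 and 4, with 0 of 8 markers at 0 in any mouse. The 8 T and NK cell markers summed to 9.98 CPM in SA/SA replicate 3 and to 6.45, 6.04 and 5.64 CPM in SA/SA replicates 1, 2 and 4. In WT mice they summed to between 3.21 and 6.44 CPM. The part of both marker sets in the level of Myc was not tested. The 8 hepatocyte markers summed to between 95385 and 111628 CPM in WT mice. They were at 100012 and 91694 CPM in SA/SA replicates 1 and 4, where the biogenesis factors were high, and at 125322 and 130291 CPM in SA/SA replicates 2 and 3, with none at 0. Most of each sum was Alb alone. The median deviation over the 8 markers was -0.14 and -0.058 in SA/SA replicates 1 and 4, and 0.22 and 0.26 in SA/SA replicates 2 and 3. It was between -0.11 and 0.080 in WT mice. The 9 Kupffer cell and macrophage markers summed to 358, 523, 383 and 239 CPM in SA/SA replicates 1 to 4 and to between 229 and 454 CPM in WT mice, with none at 0. All 9 were higher in SA/SA mice in the high series, by a median of 0.86, and 1 of 9 in the low series, where the median was -0.40. Of 6 neutrophil markers, the 5 that passed the filter summed to 4.12, 12.3, 8.71 and 1.88 CPM in SA/SA replicates 1 to 4. In WT mice the sum was between 2.27 and 6.36 CPM, and 2 of the 6 were at 0 in some mice. The median difference of the 5 that passed the filter was 1.23 in the high series, where 5 of 5 were higher in SA/SA mice as Myc was, and -0.49 in the low, where 0 of 5 were. Other marker sets also differed among mice. The 7 stellate cell markers, of which 0 were higher in SA/SA mice, summed to 183, 106, 242 and 235 CPM in SA/SA replicates 1 to 4. In WT mice they summed to between 238 and 313 CPM. The 5 red blood cell markers summed to between 411 and 2647 CPM in WT and 951 and 1154 CPM in SA/SA mice. Of 7 pancreatic acinar markers, 2 passed the filter, Cela2a and Cela1. They summed to 19.2 CPM in WT replicate 2 and at most 6.43 CPM in every other mouse. Of the markers left out of this sum, Ctrb1, Cpa1, Pnlip and Prss2 were also highest in WT replicate 2. They were at 7.87, 4.23, 3.21 and 1.83 CPM there by library size alone, and Amy2a5 was at 0. The part of all these markers in the levels of Myc and the other members was not tested.

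The other genes of the pathway were read from the same fit by lists, of which no gene passed an adjusted p of 0.05 in edgeR or DESeq2 (0 genes in all 9 lists). Of 19 other genes of the RNA polymerase I machinery, 13 were higher in SA/SA mice, with a median log2 fold change of 0.094 (0.055 without SA/SA replicate 1). Its smallest p belonged to Cd3eap and Polr1d, polymerase subunits, with 0.31 (SE 0.20) and 0.14 (SE 0.11). Of 41 other small subunit factors, 31 were higher, with a median of 0.096. Riok1, a kinase of pre-40S maturation, was at 4.61 to 5.39 CPM in WT and 5.65 to 6.49 CPM in SA/SA mice, without overlap, with 0.29 (SE 0.14, adjusted p = 0.993), and Dnttip2 had 0.25 (SE 0.12).

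Of 44 other large subunit factors, 35 were higher, with a median of 0.061. With scaling by library size alone 29 were higher and the median was 0.028, and without SA/SA replicate 4 there were 27. Nle1, a pre-60S factor, was highest in the low-series SA/SA mice, at 10.1, 6.06, 4.78 and 10.1 CPM in SA/SA replicates 1 to 4 and between 4.22 and 5.84 CPM in WT mice, with a log2 fold change of 0.59 (SE 0.25, adjusted p = 0.993). Ddx56, a nucleolar helicase, had 0.21 (SE 0.11). Of 22 tested genes of the RNA exosome and RNase MRP, which trim and cut the precursor, 17 were higher, with a median of 0.12. Exosc4, an exosome subunit, had 0.27 (SE 0.12), and Mphosph6, an exosome cofactor, was between 1.43 and 1.86 CPM in WT and 1.99 and 2.56 CPM in SA/SA mice, without overlap, with 0.42 (SE 0.21). In the 4 lists of biogenesis genes the low-series median lay between 0.11 and 0.21 and the high-series median between 0.031 and 0.088.

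**Figure D5:**
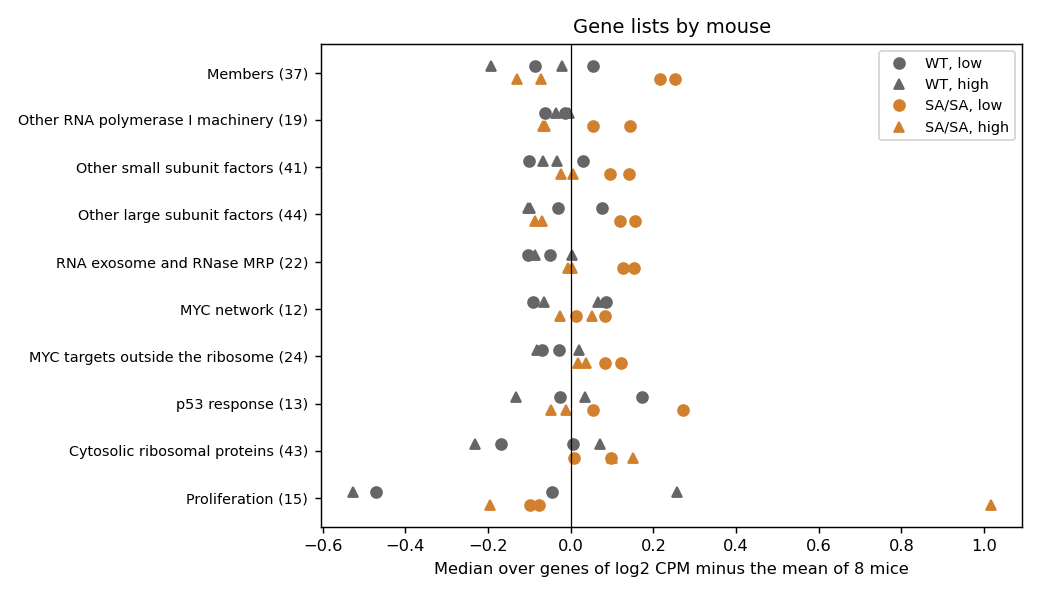
Median over the genes of each list of log2 CPM minus the mean of the 8 mice, with 1 point per mouse; grey is WT, orange is SA/SA, circles are the low and triangles the high series, and the number of genes is in brackets. The 2 SA/SA circles are the highest points of the members and of the 4 other lists of biogenesis genes, and SA/SA 3 stands at 1.02 for proliferation genes.

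The MYC network was mixed, while most MYC targets were higher in mean. Of 12 tested genes of the MYC network, 5 were higher (3 with scaling by library size alone), with a median of -0.015; Mycn was at 0.138 to 0.478 CPM in WT and 0.132 to 0.290 CPM in SA/SA mice, and Mxi1, a MYC antagonist, had -0.19 (SE 0.16). Of 24 MYC targets outside the ribosome, 19 were higher, with a median of 0.12. Srm, spermidine synthase, was at 21.6, 25.0, 16.5 and 16.9 CPM in WT and 25.8, 28.5, 30.96 and 25.8 CPM in SA/SA mice, so that every SA/SA mouse was above every WT mouse. Its log2 fold change was 0.47 (SE 0.15, adjusted p = 0.993 from edgeR), and it was the gene with the smallest p on the list. Odc1, the enzyme before Srm in polyamine synthesis, had 0.38 (SE 0.18), and its highest mice were SA/SA replicates 3 and 2, at 128 and 115 CPM.

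The ribosomal proteins that the pathway assembles had another order of mice. All 43 cytosolic ribosomal protein genes on the list used here were higher in mean in SA/SA mice (42 with scaling by library size alone). Their median log2 fold change was 0.17, and 0 passed the test. Here the median was 0.14 in the low and 0.22 in the high series, and WT replicates 1 and 3 were the lowest mice, at median deviations of -0.17 and -0.23. Rpl11 was at 267 to 322.9 CPM in WT and 323.5 to 373 CPM in SA/SA mice, without overlap, with a log2 fold change of 0.23 (SE 0.10), and Rpl32 had the same value, 0.23 (SE 0.10). Of 13 genes of the p53 response, which impaired ribosome assembly can induce, 5 were higher, with a median of -0.036. Trp53inp1 had -0.77 (SE 0.30) and Eda2r, at most at 1.01 CPM in any mouse, 1.57 (SE 0.77). Of 15 proliferation genes, 13 were higher with a median of 0.41, which was 0.044 over low-series mice and 0.44 over high-series mice. This list rested on SA/SA replicate 3, the mouse with the high B cell and plasma cell markers, without which 10 of 15 were higher and the median was 0.061, and it was 0.68 without WT replicate 3. Ccna2, at 2.48 CPM in SA/SA replicate 3 and at most 0.724 CPM in the 7 other mice, and Tyms, with 0.23 (SE 0.15), had the smallest p of that list.

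Gene structure bears on how far some of these values can be read. In the annotation of GENCODE M21 on GRCm38, 8 members (Nop56, Nop58, Dkc1, Wdr43, Tsr1, Ppan, Ncl and Gnl3) contain 23 snoRNA genes, 5 of them in Nop56 and 2 in Ppan. All 23 are in the table and 0 had a mean count of 1 or more. The libraries were made from polyadenylated RNA. Some members share stretches with processed pseudogenes, so that the assignment of their reads is uncertain. The 5 highest shares of 31-base words of the principal transcript found in other genes were 75.2% for Fbl, 45.5% for Npm1, 38.2% for Nop56, 31.7% for Pes1 and 15.8% for Rrs1. Wdr12 followed at 13.6%, part of it with the processed pseudogene Gm4879. Nop56, Rrp9, Dkc1 and Tsr1 are among the members that overlap a gene on the opposite strand, and the use of strand in the counting is not given in the sources used here.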

How the data were processed

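RNA sequencing of liver from 4 WT and 4 SA/SA female mice was analysed, from TruSeq stranded mRNA libraries. As deposited, the values are salmon's estimated counts, which the authors had scaled for average transcript length and not for library size. The submitters' processing notes name build GRCm38, bcl2fastq, STAR, SAMtools, MultiQC and DESeq2, and the annotation release and the use of strand are not given in the sources used here. Columns were matched to mice by animal number. Estimated counts were rounded, genes were kept with filterByExpr, and genotypes were tested with glmQLFTest of edgeR 4.0.16 in R 4.3.3 (quasi-likelihood test, TMM factors, Benjamini-Hochberg adjustment over 14629 genes). The genotype-by-series interaction and the series effect were fitted in the same way. Log2 CPM uses a prior count of 2, and members named one by one have an exact two-sided permutation p, which cannot go below 0.0286. The tests were checked on simulated counts, drawn independently for each gene and mouse, with a required result only for large changes. This check does not cover changes as small as those of the members. Alternatives were DESeq2 1.42.0, limma-voom (limma 3.58.1), other scalings, filters and blocks, and leaving out each mouse.

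Values in every mouse are given for Ppan, Myc and the members with the highest and lowest fold change of each role, by rule; Nop56, Nop58, Noc4l and Nle1 were added after their values were seen. Of each other list, the 2 genes with the smallest p are named. The members and lists were chosen with earlier results of these data known. Same-numbered replicates did not deviate together (correlations 0.056, 0.17, -0.11 and 0.13), so the numbers were not treated as pairs. No 2 libraries were copies, with a smallest chi-square of 40.2 per gene. Coordinates are from GENCODE M21 by gene identifier (45143 of 45706 matched, with all 37 members), and promoters from RefSeq. Ppan, Mybbp1a, Nop2 and Tsr1 were chosen for display after their values were seen.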

Additional observations from a re-analysis of the deposited data

Results flagged for a closer look

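Rrp1b, a nucleolar pre-60S factor, had its lowest SA/SA value, 4.30 CPM, in replicate 2, while replicates 1, 3 and 4 lay at 6.80 to 7.18 CPM, a gap of 0.869 of the group's range, which is above Dixon's critical value at the 95% level. WT mice lay between 3.23 and 7.87 CPM, so the low mouse was within the WT range. The members gave 74 groups of 4 mice, of which chance puts about 1 in 20, or 3.7, past this value. No explanation was tested.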

How the results depend on the processing

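Across the 10 alternatives other than leaving out a mouse, the members' median log2 fold change stayed between 0.14 and 0.17, and 0 members were called between genotypes. DESeq2 called 6 genes in all, where edgeR called 0. Between series, DESeq2 and edgeR without a filter each called 5 members, where the reported test called 0. With library size alone the fold change turned negative for Utp18 (-0.0243), Utp20 (-0.0209) and Npm1 (-0.0217), as it did without the 50 most abundant genes in the scaling (-0.022, -0.015 and -0.016). With the replicate number as a block the median was 0.15 and Noc4l was at -0.012. In that fit 1 of 37 members (Rrp9) had an unadjusted p under 0.05, beside 3.96% of all genes. Of the 4 SA/SA mice, 2 correlated best with the WT mouse of their own number. The block changed no other call. With the series as a block, 2 of 37 members (Ppan and Mybbp1a) had an unadjusted p under 0.05, beside 4.24% of all genes.

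With 1 mouse left out, the members' median was lowest without SA/SA replicate 4, at 0.066, and highest without SA/SA replicate 2, at 0.20. The number of members without overlap ran from 0 to 3 (3 without WT replicate 1, WT replicate 2 or SA/SA replicate 3, and 2 without SA/SA replicate 2). The share of all genes without overlap is not given for these fits. Genotypes separate more easily with 3 mice against 4 than with 4 against 4, so these counts are not read as a result about the members. Fold changes that changed sign ran from -0.0443 to 0.354 for Nop58, from -0.0489 to 0.129 for Polr1a, from -0.137 to 0.067 for Polr1b, from -0.0773 to 0.147 for Nop14, from -0.193 to 0.199 for Noc4l, from -0.0842 to 0.173 for Utp18, from -0.0986 to 0.156 for Utp20, from -0.0815 to 0.158 for Nob1, from -0.0646 to 0.155 for Wdr12, from -0.0529 to 0.0867 for Npm1, from -0.0165 to 0.175 for Gnl3 and from -0.212 to 0.136 for Ddx21. The cause of these changes was not tested. The shallowest member value, of Myc, rested on 135 counts.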
